A study of Mus musculus with 8 samples.

Results

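Vascular cells are the cells that the depositing authors annotated as Vascular in single-cell data from the mouse paraventricular nucleus of the hypothalamus (PVN), a region that controls the hormonal response to stress. They were chosen by that deposited label alone, and they numbered 401 of 35672 cells, or 1.12% of all cells. All 401 formed 1 cluster of the authors, and that cluster held no other cell. Acta2 and Myh11, contractile proteins that mark smooth muscle, are the genes by which such cells are usually known. Gene expression was not analysed here, so the label was not checked against these markers, and the name is used as the authors gave it.

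The smooth muscle of small arteries and arterioles sits outside the endothelium and sets vessel calibre by contracting. Endothelial cells line the whole vascular tree, pericytes wrap the capillaries, and meningeal cells belong to the coverings of the brain. The PVN is densely supplied with capillaries, so cells of vessel walls can be recovered with its neurons and glia.

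The study asked how sex shapes the response of PVN cells to stress. It has 8 libraries from C57BL/6 mice, with sex, cohort and exposure fully crossed and 1 library in each cell of that design. The baseline cohort, at 10 weeks of age, holds a female and a male control library and a female and a male library after 15 min of acute restraint stress (ARS). The cohort of chronic mild stress (CMS), at 11 weeks of age, holds a female and a male library given the same restraint after 21 days of CMS, and a female and a male control library. Those controls carry CMS in their titles while their condition reads unstressed, so they were taken here as unstressed controls. Tissue was taken 5 h after the restraint and digested with papain, and the cells went into droplets. The sources used here do not say how many animals went into a library. Each of the 8 groups is thus 1 library, and each level of sex, cohort or exposure has 4. The p-values measure only spread between libraries, which edgeR and limma pool to differing degrees over cell types.

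The libraries held 3523 to 5777 cells with a median of 1845 to 2565 unique molecular identifiers (UMIs, which count captured RNA molecules) per cell. Of 34942 barcodes, 722 occurred in more than 1 library. Of the Vascular cells, 15 carried such a barcode, and 0 barcodes marked a Vascular cell in more than 1 library.

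The number of Vascular cells varied strongly with the cohort. The baseline cohort gave 78 Vascular cells in the female control library, 47 in the male control library, 71 in the female ARS library and 75 in the male ARS library. The CMS cohort gave 30 in the female control library, 25 in the male control library, 54 in the female library after CMS and ARS, and 21 in the male one. As shares of all cells, the baseline libraries stood at 1.40% (female control, exact Clopper-Pearson 95% interval 1.11 to 1.75), 1.27% (male control, 0.937 to 1.69), 1.23% (female ARS, 0.961 to 1.55) and 1.96% (male ARS, 1.54 to 2.45). The CMS libraries stood at 0.663% (female control, 0.447 to 0.944), 0.661% (male control, 0.428 to 0.975), 1.08% (female stressed, 0.815 to 1.41) and 0.596% (male stressed, 0.369 to 0.910). These intervals cover counting error only. Every CMS library lay below every baseline library, and the female stressed CMS library came closest to the baseline range.

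The share was 0.751% ± 0.224 (SD, n = 4) in the CMS cohort and 1.47% ± 0.336 (SD, n = 4) in the baseline cohort, 1.93-fold lower with a 95% interval of 1.33 to 2.81 (edgeR quasi-likelihood test, adjusted p = 0.00443). In that comparison 17.6% of the 17 cell types tested were called, namely AVP neurons, Mixed_Endothelial cells and Vascular cells. The fit took its spread mostly from all types pooled, with a weight (prior degrees of freedom) of 71.9. In the fit of the ratio to Endothelial cells, given below, this weight was 2.68. The share was lower in CMS in each of the 4 matched pairs of libraries, 2.12-fold in female controls, 1.93-fold in male controls, 1.13-fold in stressed females and 3.28-fold in stressed males. Over all cells, the unstressed control pairs thus showed the difference too. Cohort, age and anything done to the cohorts separately cannot be told apart in this design. The call was lost when the male baseline ARS library was left out (log2 fold -0.76, edgeR adjusted p = 0.0830). It was also lost with TMM normalization factors, with clusters in place of cell types, and among cells with a doublet score (explained below) under 1.

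The ratio to Endothelial cells, which line the whole vascular tree, does not depend on how many neurons or glia a library held. It can still vary with the kinds of vessel recovered, which was not tested. There were 15.1 Vascular cells per 100 Endothelial cells in the female baseline control library, 14.2 in the male baseline control, 14.3 in the female baseline ARS and 20.8 in the male baseline ARS library. In the CMS cohort the ratio was 8.04 in the female control, 7.81 in the male control, 9.93 in the female stressed and 7.69 in the male stressed library. No CMS library reached the lowest baseline library. The mean ratio was 8.37 ± 1.05 (SD, n = 4) in CMS and 16.1 ± 3.18 (SD, n = 4) in baseline libraries, 1.90-fold lower with a 95% interval of 1.38 to 2.61 (edgeR adjusted p = 0.0175). Of the 16 other types set against Endothelial cells, 12.5% were called, which were Vascular and Mixed_Endothelial cells. The share of Endothelial cells themselves was 8.84% ± 1.42 in CMS and 9.07% ± 0.365 in baseline libraries (SD, n = 4 each).

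The pairs gave the same direction for the ratio to Endothelial cells. It was lower in CMS by 1.88-fold in female controls, 1.81-fold in male controls, 1.44-fold in stressed females and 2.71-fold in stressed males. An exact two-sided permutation of 4 against 4 libraries gave p = 0.0286, the smallest that this design allows. An exact two-sided sign-flip test over the 4 pairs gave p = 0.125, again the smallest possible, so it could not pass the threshold of 0.05. The edgeR call was lost (adjusted p from 0.0531 to 0.0777) when any of 5 libraries was left out, namely either baseline control library, the male baseline ARS library or either male CMS library. It was also lost when Mixed_Endothelial cells were added to the denominator (log2 fold -0.78, edgeR adjusted p = 0.0762), and among cells with a doublet score under 1.

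**Figure D1:**
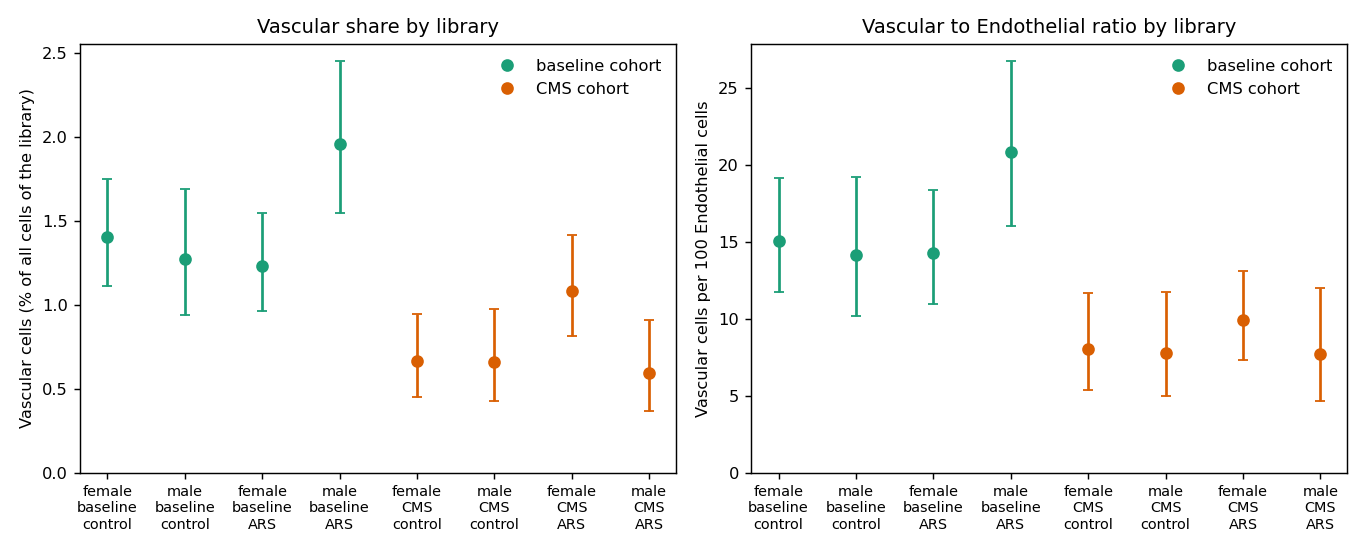
Vascular cells in each of the 8 libraries, as percent of all cells of the library (left) and per 100 Endothelial cells (right), with exact 95% intervals for counting error and the cohorts in 2 colours. The CMS libraries lie at 0.596% to 1.08% and at 7.69 to 9.93 per 100, all below the baseline libraries.

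Set against the Pericytes, Vascular cells were also scarcer in CMS. There were 20.2 ± 2.0 Vascular cells per 100 Pericytes in CMS libraries (SD, n = 4, range 17.6 to 22.5) and 33.8 ± 4.90 in baseline libraries (range 29.2 to 40.3), and the groups did not overlap (log2 fold -0.74, edgeR adjusted p = 0.0455). Pericytes themselves made up 3.68% ± 0.760 and 4.31% ± 0.400 of cells. The authors split Endothelial cells into 3 clusters. The ratio was lower in CMS with each of the 3 as the denominator, and the adjusted p from edgeR lay between 0.0184 and 0.0195. These fits reuse the same Vascular counts, and the clusters were taken as denominators after the data were seen. Calls among other types were not counted in them or in the fit per Pericyte. Per 100 cells of Endothelial_1 there were 18.3 ± 2.76 Vascular cells in CMS and 36.3 ± 15.2 in baseline libraries, per 100 of Endothelial_2 there were 27.6 ± 3.15 and 50.5 ± 4.31, and per 100 of Endothelial_3 there were 35.9 ± 6.67 and 76.6 ± 12.0 (SD, n = 4 each). Meningeal cells were few, with 10 to 31 per library. Per 100 of them there were 262 ± 92.5 Vascular cells in CMS and 384 ± 202 in baseline libraries, with overlapping ranges.

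The cohorts were also compared by the doublet score, a deposited number meant to mark droplets that held more than 1 cell. Of the Vascular cells of a library, 60.6% ± 10.1 in CMS and 71.6% ± 9.03 in baseline libraries had a score of 1 or more, against 60.5% ± 2.79 and 61.0% ± 1.48 of all cells (SD, n = 4 each). The Vascular ranges overlapped, at 47.6% to 72.0% in CMS and 60.6% to 82.1% in baseline libraries, and this contrast was not tested. Among cells with a score of 1 or more, Vascular cells made up 0.762% ± 0.292 in CMS (0.480 to 1.17) and 1.72% ± 0.394 in baseline libraries (1.24 to 2.16), with no overlap (2.22-fold lower, edgeR adjusted p = 0.00652). That fit was chosen after the data were seen, and calls among other types were not counted. Among cells with a score under 1, they made up 0.728% ± 0.186 in CMS (0.523 to 0.965) and 1.07% ± 0.431 in baseline libraries (0.657 to 1.61), and the ranges overlapped (1.41-fold lower, edgeR adjusted p = 0.354). That second set rests on 50 Vascular cells in CMS and 77 in baseline libraries. In it the female control pair showed no drop, at 0.661% in CMS and 0.657% in baseline, while the other pairs were lower in CMS. Mixed_Endothelial cells, of which 94.9% had a score of 2 or more, were also scarcer in CMS, at 0.446% of cells against 1.51%. The difference between the 2 score ranges was not tested, nor was the part of doublets in the cohort difference.

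**Figure D2:**
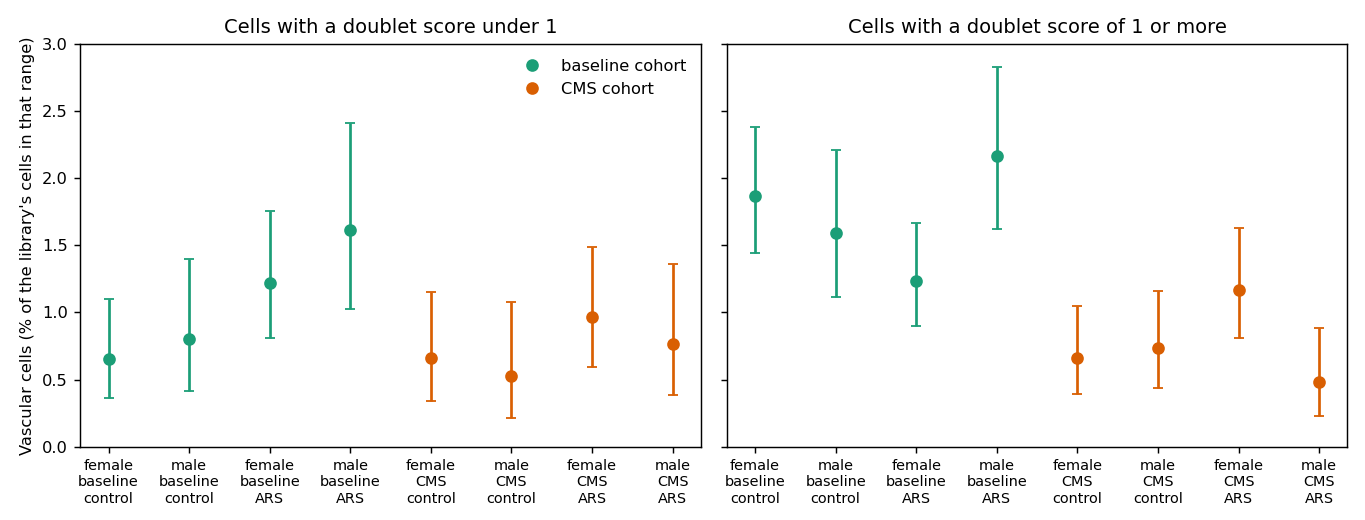
Vascular cells as percent of the cells of each library with a doublet score under 1 (left) and of 1 or more (right), with exact 95% intervals for counting error. The cohorts overlap on the left, at 0.523% to 0.965% for CMS and 0.657% to 1.61% for baseline, and do not on the right.

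The stressed libraries pool restraint alone, in the baseline cohort, with restraint after CMS, in the CMS cohort. Averaged over both, stress exposure did not shift the share of Vascular cells beyond the spread between libraries. It was 1.22% ± 0.563 in stressed and 1.0% ± 0.394 in control libraries (SD, n = 4 each), a ratio of 1.23 with a 95% interval of 0.846 to 1.78 (edgeR adjusted p = 0.944). Of the 4 pairs, 2 had more Vascular cells under stress (1.64-fold in CMS females and 1.54-fold in baseline males) and 2 had fewer (0.876 times the control in baseline females and 0.902 times in CMS males). In this comparison 0% of the 17 types were called by edgeR, 0 reached an unadjusted p under 0.05, while 0 were called by DESeq2 and 0 by limma. Per 100 Endothelial cells there were 13.2 ± 5.79 in stressed and 11.3 ± 3.88 in control libraries (SD, n = 4 each; ratio 1.16, 95% interval 0.847 to 1.59, edgeR adjusted p = 0.985). By edgeR, 0% of the 16 types were called there, and 0 had an unadjusted p under 0.05. In cells with a doublet score under 1 the stress difference was larger but not called, at a log2 value of 0.77 for the share (SE 0.31, edgeR adjusted p = 0.261) and 0.87 for the ratio to Endothelial cells (SE 0.34, edgeR adjusted p = 0.168). In cells with a score of 1 or more it was 0.09 for the share and -0.08 for the ratio.

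The sexes did not differ beyond their spread either. Vascular cells made up 1.09% ± 0.316 of female and 1.12% ± 0.635 of male libraries (SD, n = 4 each), with a fitted ratio of female to male of 1.04 and a 95% interval of 0.714 to 1.50 (edgeR adjusted p = 0.960). The means and the fitted ratio point in opposite directions, both close to equality. Of the 17 types, 5.88% were called, which was Tanycytes alone. Female libraries were at 1.002 times the male share in CMS controls, 1.82 times in CMS stressed, 1.10 times in baseline controls and 0.628 times in baseline ARS libraries. Per 100 Endothelial cells, females had 11.8 ± 3.40 and males 12.6 ± 6.25 Vascular cells (SD, n = 4 each; edgeR adjusted p = 0.880). By edgeR, 0% of the 16 types were called for that ratio, and 2 had an unadjusted p under 0.05.

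Whether the effect of stress differed between cohorts or between sexes was tested as an interaction. The log2 difference in the Vascular share was 0.12 (SE 0.59, edgeR adjusted p = 0.918) for exposure by cohort and -0.06 (SE 0.57, edgeR adjusted p = 0.953) for exposure by sex. By edgeR, 0% of the 17 types were called in either interaction, with 1 type and 2 types reaching an unadjusted p under 0.05, while 0 were called by DESeq2 and 0 by limma in each. The SEs of these terms rest wholly on spread pooled over types.

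Vascular cells differed from the other vessel-associated types in how much RNA they yielded. Their median UMI count per cell was 2936.5 in the female and 2877 in the male baseline control library, 2882 in the female and 3010 in the male baseline ARS library, 2572.5 in the female and 3138 in the male CMS control library, and 2611 in the female and 2747 in the male CMS stressed library. Only a narrow band of medians was therefore seen across libraries. Over the 8 libraries the median was 2847 ± 194 (SD), against 1502 ± 106 in Pericytes, 2163 ± 285 in Endothelial and 2265 ± 437 in Meningeal cells. Vascular cells were higher in 8 of 8 libraries in each comparison, by 1.90-fold, 1.32-fold and 1.28-fold (exact two-sided sign-flip test over 8 libraries, adjusted p = 0.0108 each). The smallest unadjusted p that this test allows is 0.0078, and the adjustment covers 18 tests of 6 measures against 3 types. With means of cells in place of medians, the difference from Endothelial cells was 0.04 on the log2 scale (exact adjusted p = 0.414), and in cells with a doublet score under 1 the difference of medians was 1.06 (exact adjusted p = 0.0156), against 0.40 in all cells. The labels of all these types were drawn from the same cells, so the contrasts describe annotated types.

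Detected genes followed the UMIs only in part. The median Vascular cell had 1407 genes in the female and 1425 in the male baseline control library, 1370 in the female and 1447 in the male baseline ARS library, 1319 in the female and 1480 in the male CMS control library, and 1264 in the female and 1319 in the male CMS stressed library. The mean of these medians was 1379 ± 73.9 (SD, n = 8), against 933 ± 59.6 in Pericytes, 1239 ± 118 in Endothelial and 1272 ± 187 in Meningeal cells. Vascular cells were 1.48-fold above Pericytes in 8 of 8 libraries (exact sign-flip adjusted p = 0.0108) and 1.12-fold above Endothelial cells in 7 of 8 (exact adjusted p = 0.0201). The difference from Endothelial cells was 0.16 on the log2 scale in all cells, 0.07 in cells with at least 1000 UMIs, where the call was lost (exact adjusted p = 0.1125), and -0.05 with means in place of medians (exact adjusted p = 0.264). In cells with a doublet score under 1 it was 0.64 (exact adjusted p = 0.0156). Against Meningeal cells the ratio was 1.09 and 6 of 8 libraries were higher, which did not pass the test (exact adjusted p = 0.0791).

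At a like number of UMIs the order turned. Vascular cells had fewer detected genes than the other 3 types in each of 6 ranges of UMIs from 1000 to 4500. However, the 2 deepest ranges held only 6 and 5 Pericytes, and the 2 shallowest only 13 and 14 Vascular cells. Between 2500 and 3000 UMIs, the median was 1352 genes in 133 Vascular cells, 1451.5 in 24 Pericytes, 1468 in 223 Endothelial and 1479 in 24 Meningeal cells. Between 3000 and 3500 UMIs it was 1498 in 86 Vascular cells and 1686 in 189 Endothelial cells. By library, in cells with 2500 to under 3500 UMIs, Vascular cells had 1411 ± 41.9 genes and Endothelial cells 1561 ± 50.6 (SD, n = 8), a ratio of 0.904 that was below 1 in 8 of 8 libraries (exact two-sided sign-flip p = 0.0078, the smallest possible, for a window chosen after the data were seen). The transcripts of a Vascular cell were thus spread over fewer genes at that depth, with 48.4 genes per 100 UMIs in the median Vascular cell at its own depth, 57.5 in Endothelial cells, 55.3 in Meningeal cells and 62.1 in Pericytes. The last 4 values also carry the differences in depth between types.

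**Figure D3:**
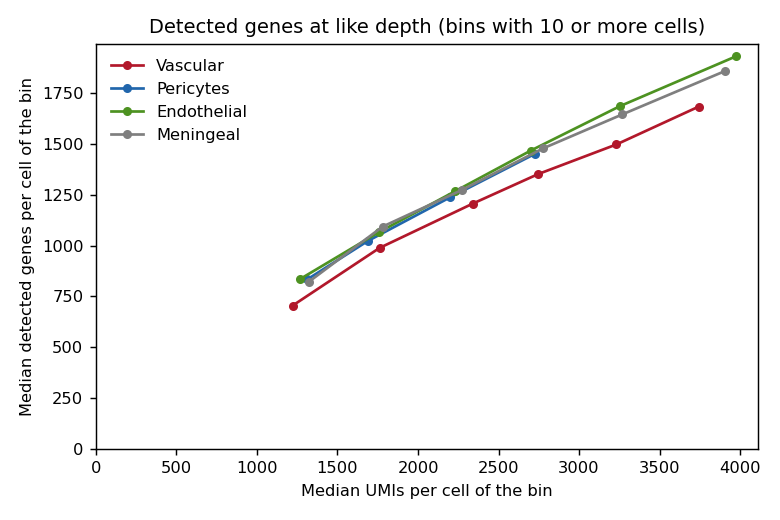
Median number of detected genes against median number of UMIs for cells binned by UMIs, for the 4 types, in bins of at least 10 cells. The Vascular line runs lowest, with 1352 genes between 2500 and 3000 UMIs where Endothelial cells have 1468.

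The mitochondrial share of UMIs was higher in Vascular cells than in each of the 3 other types. Library medians of Vascular cells were 4.72% in the female and 4.22% in the male baseline control library, 4.42% and 4.72% in the female and male baseline ARS libraries, 4.65% and 4.78% in the female and male CMS controls, and 4.75% and 5.11% in the female and male CMS stressed libraries. Their mean was 4.67% ± 0.263 (SD, n = 8), against 2.52% ± 0.136 in Pericytes, 2.74% ± 0.170 in Endothelial and 2.78% ± 0.336 in Meningeal cells. The differences of 2.16, 1.93 and 1.90 percentage points held in 8 of 8 libraries, and the ranges of library medians did not overlap (exact two-sided sign-flip test, adjusted p = 0.0108 each). In cells with 2500 to under 3500 UMIs the medians were 4.56% ± 0.322 in Vascular and 2.75% ± 0.288 in Endothelial cells (SD, n = 8). Vascular cells were higher in 8 of 8 libraries (exact two-sided sign-flip p = 0.0078, unadjusted and the smallest possible). This is the same window chosen after the data were seen. In absolute terms the median Vascular cell held 131 mitochondrial UMIs, against 37 in Pericytes, 64 in Endothelial and 55 in Meningeal cells. From the highest down, the Vascular median of 4.62% over all cells had rank 5 of 17, below Neurons_mixed, GABA, Glut and Astrocytes and just above Ependymal cells.

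**Figure D4:**
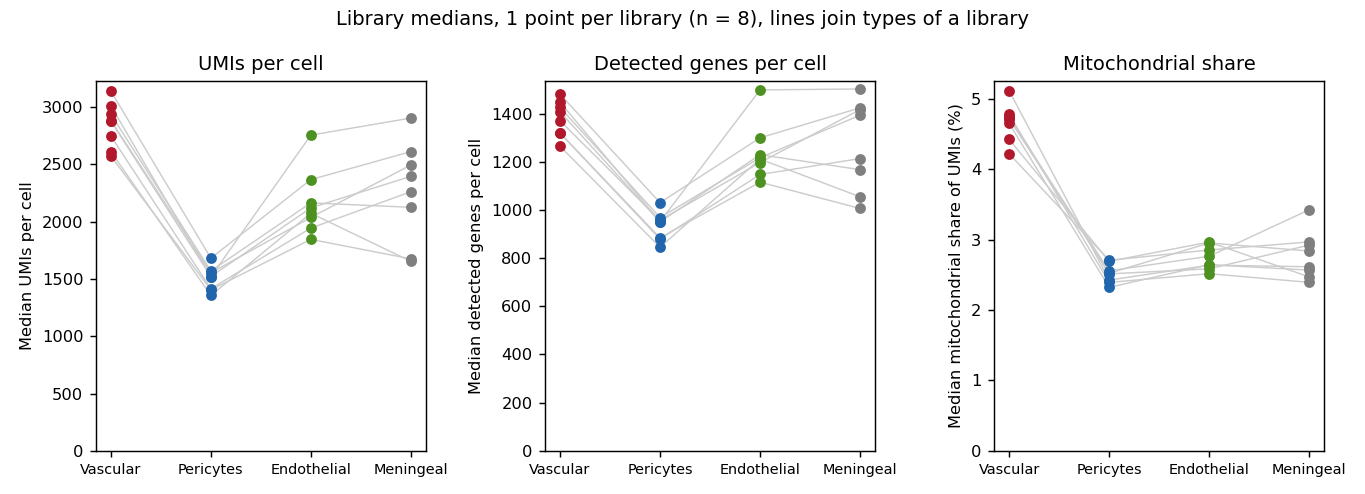
Library medians of UMIs per cell, detected genes per cell and mitochondrial percent in Vascular, Pericytes, Endothelial and Meningeal cells, 1 point per library and lines joining the types of a library. Vascular medians of 4.22% to 5.11% mitochondrial UMIs lie above every other point in the right panel.

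As a population, Vascular cells had a narrow range of depth. Over all 401 cells the UMI count ran from 620 to 8774, with quartiles at 2481, 2877 and 3369. The ratio of the upper to the lower quartile was 1.36, the second tightest of the 17 types after Oligodendrocytes, and for detected genes it was 1.22, the tightest of all. The coefficient of variation of UMIs was 29.0% in Vascular cells, 28.5% in Pericytes, 44.5% in Meningeal and 67.9% in Endothelial cells. Of the Vascular cells, 85.0% had 2000 to 4000 UMIs, against 31.9% of Endothelial cells, 56.5% of Meningeal cells and 11.0% of Pericytes. That window lies around the Vascular median, and most Pericytes fell below it (median 1501.5 UMIs). By the ratio of quartiles, at 1.38, Pericytes were nearly as narrow as Vascular cells. Only 3 Vascular cells passed 5000 UMIs, with a median of 7921 UMIs and 3168 genes and a median doublet score of 0. At the low end 11 cells, or 2.74%, had fewer than 1000 UMIs.

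**Figure D5:**
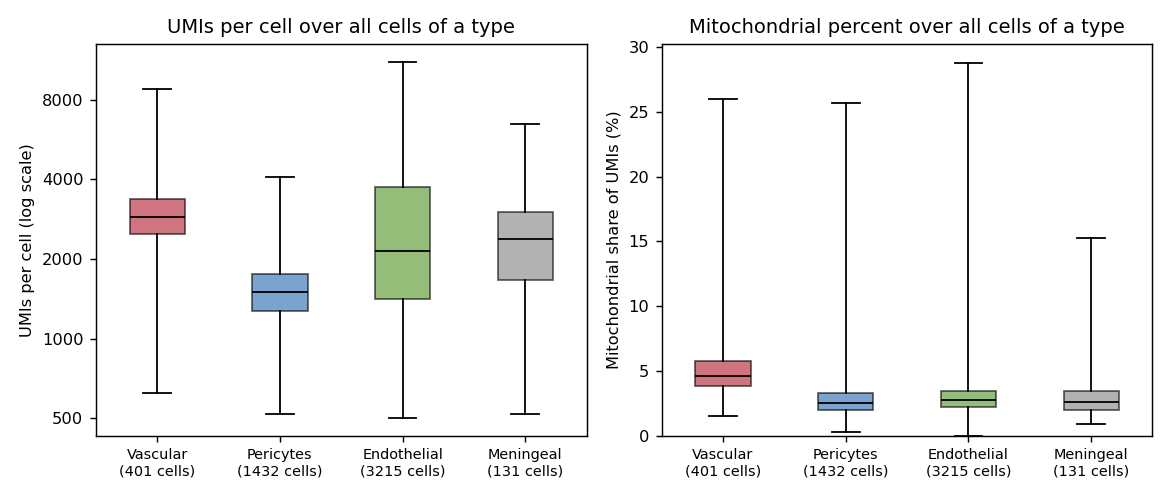
UMIs per cell on a log axis (left) and mitochondrial percent (right) over all cells of 4 types, with boxes for the quartiles, a line for the median and whiskers to the lowest and highest cell. The Vascular box spans 2481 to 3369 UMIs and 3.83% to 5.75% mitochondrial UMIs.

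The mitochondrial percent of single Vascular cells ran from 1.52% to 26.0%, with quartiles of 3.83% and 5.75%. Above 10% were 19 cells, or 4.74% of Vascular cells (exact 95% interval 2.88 to 7.30), against 2.30% of Pericytes, 2.30% of Endothelial and 3.05% of Meningeal cells. These 19 cells came from 5 libraries. Of the cells, 2 were from the male stressed CMS library and the rest from baseline libraries. Their median was 2788 UMIs and their median doublet score 0. Within libraries the mitochondrial percent had no steady relation to UMIs, with Spearman's rho from -0.279 to 0.404 over cells. UMIs and detected genes were closely related in each library, with rho from 0.913 to 0.960. Cells of 1 library share their dissection and depth, so these are descriptions.

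Doublet scores of Vascular cells were close to those of Endothelial cells. The mean score by library was 1.18 ± 0.207 in Vascular cells (SD, n = 8), 0.219 above Pericytes in 8 of 8 libraries (a call lost with medians, at exact adjusted p = 0.0541) and 0.911 above Meningeal cells in 8 of 8 (exact sign-flip adjusted p = 0.0108 each), and 0.0567 above Endothelial cells in 5 of 8 (exact adjusted p = 0.398). A score of 0 was given to 24.7% of Vascular cells, 34.2% of Endothelial cells, 41.1% of Pericytes and 88.5% of Meningeal cells. A score of 2 or more was given to 16.2% of Vascular cells and to 94.9% of Mixed_Endothelial cells. Within the Vascular cells a score of 0 went with lower depth, but above 0 the median UMIs did not rise with the score. Spearman's rho between UMIs and score ran from 0.135 to 0.423 over the 8 libraries. The 99 cells with a score of 0 had a median of 2276 UMIs and 1172 genes, the 237 with a score above 0 and under 2 had 3028 UMIs and 1442 genes, the 50 from 2 to under 3 had 2874.5 UMIs and 1418 genes, and the 15 at 3 or more had 2820 UMIs and 1399 genes. Of the 101 cells with the fewest UMIs 57.4% had a score of 0, and of the 100 with the most UMIs 7%.

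Scores for the S and G2/M phases of the cell cycle were lower in Vascular cells than in Pericytes and Endothelial cells, but not than in Meningeal cells. From the highest down, the mean over all Vascular cells had rank 10 of 17 types for S and 12 of 17 for G2/M. The mean S score by library was -0.00245 and the mean G2/M score -0.0170. Both lay below Pericytes (by -0.00831 and -0.0109) and below Endothelial cells (by -0.0125 and -0.0125) in 8 of 8 libraries (exact two-sided sign-flip test, adjusted p = 0.0108 each). Among cells with a doublet score under 1, none of these 4 differences passed the test. There the S differences were smaller, at -0.00456 from Pericytes (exact adjusted p = 0.463) and -0.00538 from Endothelial cells (exact adjusted p = 0.378). The G2/M differences kept their size, at -0.0108 (exact adjusted p = 0.0541) and -0.0128 (exact adjusted p = 0.0511). Against Meningeal cells the differences were 0.00636 (7 of 8 libraries higher, exact adjusted p = 0.0562) and 0.00578 (5 of 8 higher, exact adjusted p = 0.116). Both scores were above 0 in 12.2% of Vascular cells, 22.5% of Pericytes, 24.1% of Endothelial cells and 12.2% of Meningeal cells. A G2/M score above 0.2 was found in 0 of 401 Vascular cells, which allows a share of up to 0.748% by the rule of 3 counts and 0.916% by the exact 95% interval, and an S score above 0.2 in 1. Types differ in depth, whose part in these scores was not tested.

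Within Vascular cells, depth and mitochondrial percent did not differ detectably between the study's groups. The median UMI count was 2767 ± 258 in CMS and 2926 ± 61.9 in baseline libraries (SD, n = 4 each; log2 difference -0.09, SE 0.10, limma adjusted p = 0.572), where 18.8% of the 16 types tested were called. For detected genes the cohort difference was -0.07 (SE 0.08, limma adjusted p = 0.515), where 25% of types were called. For mitochondrial percent it was 0.30 percentage points (SE 0.16, limma adjusted p = 0.215), where 18.8% of types were called.

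The same measures gave no Vascular call for stress or sex. For stressed against control libraries the differences were -0.03 in log2 UMIs (limma adjusted p = 0.999), -0.06 in log2 genes (limma adjusted p = 0.887) and 0.16 points of mitochondrial percent (limma adjusted p = 0.673). Limma called 0% of the 16 types in each of the 3 measures, and 1, 0 and 1 types had an unadjusted p under 0.05. For female against male libraries they were -0.10 (limma adjusted p = 0.579), -0.08 (limma adjusted p = 0.488) and -0.07 points (limma adjusted p = 0.913). Of the types, 0%, 6.25% (Meningeal cells) and 0% were called by limma, with 1 type in each measure at an unadjusted p under 0.05.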

How the data were processed

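Dissociated PVN cells were made into 10x Genomics 3' v2 libraries, per the labels' protocols. The submitters' processing notes name Cell Ranger 3.0.2 and 3.1.0, mm10 and Seurat 3.1.3, without saying which version served which library. Each line of the deposited table is 1 cell, with whole-number counts of UMIs and detected genes, a mitochondrial fraction (turned into percent here), and doublet, S and G2/M scores, for which no source used here names a tool. The fraction times the UMIs of the cell was a whole number within 1e-06 in every cell. Cells were joined to libraries by the experiment, sex and condition names, where the acute stress experiment is the baseline cohort, leaving 0 unmapped. No cell was removed here, and doublets were not called again.

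The number of cells of each type in each library was tested by edgeR 4.0.16 in R 4.3.3 (quasi-likelihood, no abundance trend, library size all cells or Endothelial cells, 17 types with at least 80 cells), with sex, cohort and exposure as terms. For library medians limma 3.58.1 was used, over the 16 types that had 10 or more cells in every library. Benjamini-Hochberg adjustment ran over the types, with a threshold of 0.05. Vascular cells were set against the other 3 types by exact two-sided sign-flip permutation over 8 libraries (numpy 2.4.6), on medians of UMIs, genes and mitochondrial percent and means of scores. Exact intervals for counts and correlations came from scipy 1.17.1. Simulated data served to check the edgeR share fit and the limma fit of UMIs for the cohort contrast, and the sign-flip test. The simulated types all had the same spread, unlike real types. The ratio fit, the interactions and DESeq2 were not simulated. Alternatives included DESeq2 1.42.0, limma on log odds (offset 0.5), TMM factors, other denominators, filters on cells and each library left out. The Endothelial clusters as denominators, the fit by clusters, the depth window and the doublet scores of at least 1 were chosen after seeing the data. The types, measures and tests were chosen with earlier results of these data known. Library totals were 9924892 to 15760435 UMIs. Each Vascular count is 21 to 78 cells, which sets its precision. No gene is named from data, and types are named as fixed comparison types or as the calls of a comparison. Where a rank among all 17 types names other types, they are those above or next to Vascular cells. Figures were drawn with matplotlib 3.10.9.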

Additional observations from a re-analysis of the deposited data

Results flagged for a closer look

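In 3 of 30 groups of 4 libraries checked, 1 library stood apart by Dixon's criterion at the 95% level, which divides the gap to the nearest other library by the group's range. Chance flags about 1 in 20 groups, and the groups checked share libraries. The female stressed library of the CMS cohort had a Vascular share of 1.08%, against 0.596% to 0.663% in the other 3 CMS libraries (gap 0.864 of the range). The same library had 9.93 Vascular cells per 100 Endothelial cells, against 7.69 to 8.04 in the other 3 (gap 0.843 of the range). The male ARS library of the baseline cohort had 20.8 per 100 Endothelial cells, against 14.2 to 15.1 in the other 3 baseline libraries (gap 0.861 of the range).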

How the results depend on the processing

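The values are log2 differences, points or score units, as in the report. The lower Vascular share in CMS (-0.95) kept its direction in each of 20 alternatives. It lost its call with TMM factors (-0.78, edgeR adjusted p = 0.0642), in cells with a doublet score under 1 (-0.50, edgeR adjusted p = 0.354), in the fit by clusters (-0.96, edgeR adjusted p = 0.0583) and when the male baseline ARS library was left out, with a range of -1.19 to -0.76 over single libraries left out. The lower ratio to Endothelial cells (-0.93) kept its direction in each of 19 alternatives. It lost its call with Mixed_Endothelial cells in the denominator (-0.78), in cells with a doublet score under 1 (-0.63, edgeR adjusted p = 0.230), in the exact sign-flip test (-0.93, p = 0.125) and without any of the 5 libraries named in the report (range -1.05 to -0.77). The causes were not tested.

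Differences that were not called changed sign as follows. The share by sex was -0.033 without covariates, -0.069 in cells with a doublet score under 1, and -0.16 to 0.27 with single libraries left out. The exposure by cohort term was -0.40 in cells with a doublet score under 1, and -0.46 to 0.61 with single libraries left out. The exposure by sex term was 0.036 with TMM factors, 0.017 by limma on log odds, 0.0251 in cells with at least 1000 UMIs, 0.046 in cells with at most 10% mitochondrial UMIs, 0.0252 in cells with a doublet score of at least 1, and -0.57 to 0.50 with single libraries left out. The ratio by stress was -0.078 in cells with a doublet score of at least 1 and -0.012 per Endothelial_3 cell (0.05 to 0.34 with single libraries left out). In cells with a doublet score under 1 it was 0.87, and the share by stress 0.77, neither called. The ratio by sex was 0.044 per Pericyte, 0.064 in cells with at least 1000 UMIs, 0.0047 in cells with at most 10% mitochondrial UMIs, 0.11 in cells with a doublet score of at least 1, 0.19 per Endothelial_2 and 0.041 per Endothelial_3 cell, and -0.13 to 0.13 with single libraries left out.

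Within Vascular cells, relative to the library's median over all cells, UMIs differed by 0.11 between cohorts and 0.042 between sexes, and genes by 0.084 and 0.025. With means of cells the mitochondrial difference between cohorts was -0.10 points. With single libraries left out, UMIs by stress ran from -0.078 to 0.027 and mitochondrial percent by sex from -0.23 to 0.018.

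Against Endothelial cells, means in place of medians gave 0.035 for UMIs and -0.046 for genes, with both calls lost, and cells with a doublet score under 1 gave 1.06 and 0.64, with both kept. Medians in place of means gave -0.060 for the doublet score. Genes were 0.065 in cells with at least 1000 UMIs, where the call was lost, and -0.15 in the window of 2500 to under 3500 UMIs. The doublet score was -0.052 in cells with at least 1000 UMIs and 0.15 (now past the threshold) in cells scoring under 1. In those cells 5 calls were lost: the doublet score was 0.039 against Pericytes, the S score -0.0046 against Pericytes and -0.0054 against Endothelial cells, and the G2/M score -0.011 and -0.013. With medians in place of means, the doublet score was 0.37 against Pericytes (exact adjusted p = 0.0541, call lost), and the S score against Meningeal cells was 0.0065 (exact adjusted p = 0.0469, now past the threshold), and 0.0054 to 0.0084 with single libraries left out. Each mitochondrial difference between types kept its call in all alternatives. For the share and within Vascular cells, the matched pair of libraries as a block changed no call, and no minimum number of cells changed nothing, since all 17 types had at least 80 cells. In all, 77 of 96 alternatives for the share, 39 of 57 for the ratio, 100 of 108 within Vascular cells and 185 of 200 against other types kept direction and side of the threshold. The 21 to 78 Vascular cells per library limit shares and medians, and 1 library per group limits every comparison.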
